A study of Homo sapiens with 6 samples.

Results

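The mitochondrial ribosomal proteins were taken as every gene row whose symbol starts with MRPL or MRPS followed by a number, with at most 1 closing letter A, B or C. This name rule, which uses no measured value, found 77 genes among 26810 gene rows, 48 named for the large subunit (MRPL) and 29 for the small subunit (MRPS). Their transcripts were measured by sequencing of poly(A)-selected RNA in U-937 cells, an established human acute myeloid leukemia line with monocytic features. A Cas9-expressing single clone received, by lentivirus, either the guide sgMETTL1.3 against METTL1 or the control guide sgNS. METTL1 methylates tRNA at N7 of guanosine, and the comparison addressed its effect on gene expression. Each group held 3 libraries. Both groups are labelled with a KMT2A-MLLT10 fusion, where U-937 is usually described with PICALM-MLLT10, and the files used here do not settle which it is. They also shared blasticidin at 10 µg/ml, hygromycin B at 200 µg/ml and a selection time given as 1 to 2 weeks. Harvest at about day 8 to 10 after transduction and an input of 300 ng of total RNA were shared too. All libraries come from 1 clone and 1 METTL1 guide, with no rescue, so what comes from loss of METTL1 and what from the guide otherwise cannot be told apart. Separate cultures are not named for the replicates, and the p-values below therefore measure the spread among these 6 libraries, which may be technical.

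Mitochondria keep ribosomes of their own, which translate the few mRNAs of the mitochondrial genome into core subunits of the respiratory chain and the ATP synthase. Their rRNAs are made in the organelle, while all of their proteins are encoded in the nucleus, translated in the cytosol and imported. Part of these proteins descend from bacterial ribosomal proteins and the rest are found only in mitochondria, and inherited loss of several members causes combined respiratory chain deficiency. The mitochondrially encoded transcripts were not analysed here. ICT1, a release factor built into the large subunit and now also called MRPL58, stands in the files under its older name and is given with the related genes.

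Values are TPM, a length-scaled measure of transcript abundance that sums to the same total in each library, which the authors multiplied by 1 factor per library so that synthetic ERCC spike-in RNAs sum to the same amount, here called the spike-in scale. The factors were 1.13 to 1.23 in sgNS and 0.832 to 1.03 in sgMETTL1.3, so the same values were also rescaled to TPM, which shows change relative to the rest of the library. METTL1 itself was at 20.7 ± 1.18 in sgNS and fell to 7.22 ± 1.19 under the guide (SD, n = 3, limma adjusted p = 2.41e-06). The library sgMETTL1.3 replicate 1 stood apart in how its difference from the control mean changed with the GC content of transcripts. The slope was 0.381 on the log2 scale per 10 percentage points of GC, against 0.0685 and 0.0665 in replicates 2 and 3 (11745 genes, which are not independent replicates). Each control set against the other controls had a slope of -0.0351 to 0.0311, with Spearman correlations of -0.337 to 0.314. Against the mean of the other 2 sgMETTL1.3 libraries the Spearman correlations with GC were 0.837, -0.731 and -0.745 for replicates 1, 2 and 3, where replicate 1 is part of the mean for the latter 2. Of 12 myeloid markers 10 were at a mean of at least 1, with CD14 and MPO below. The sums of the list were 1619 to 1737 in sgNS and 995 to 1271 in sgMETTL1.3, and LYZ alone went from a mean of 404 to 72.1. At a limma adjusted p of 0.05, 7 of the 10 fell (70%, beside 49.3% of all tested genes), and SPI1, CEBPA and CD68 did not pass. As TPM 4 fell (40%, beside 25.3% of all tested genes) and CD68 rose. Among the markers of other cells, CD3D, CD7, MS4A1, HBB, HBA1, KRT19 and COL1A2 were at 0 in all libraries. The sums of these lists were 306 to 341 in sgNS and 161 to 244 in sgMETTL1.3 for T and natural killer cells, of which NKG7, a cytotoxic granule gene, made up nearly all (means 320 and 193). Without NKG7 the sums ran the other way, 2.62 to 2.87 and 4.85 to 5.94, and CD2, an adhesion receptor of T cells, rose from 2.72 to 5.27 (limma adjusted p = 0.000259). The sums were 7.85 to 10.1 and 6.31 to 11 for B cells, among which PAX5 fell from 4.66 to 2.34 (limma adjusted p = 0.000392), and 46.1 to 49.8 and 35.9 to 40.1 for epithelial, stromal and endothelial cells, nearly all from PECAM1. Without PECAM1 the latter were 1.87 to 1.97 and 2.7 to 4.29, and the collagen gene COL1A1 rose from 1.06 to 2.19 (limma adjusted p = 0.0039). Their part in the results below was not tested. In bulk RNA, fewer cells of a type and less RNA per cell cannot be told apart. The read depth is unknown, and the libraries listed 12134 to 12505 genes at a value of at least 1.

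Most mitochondrial ribosomal protein transcripts were lower in the sgMETTL1.3 libraries. All 77 passed the filter on low values, and 63 fell, 0 rose and 14 did not pass at a limma adjusted p of 0.05. The share that fell was 81.8%, where 49.3% of all 12449 tested genes were called lower and 6.4% higher. The median log2 fold change was -0.63 over the family, with a range of -1.65 to 0.05, against -0.32 over all tested genes. Fold changes were taken on log2(value + 1), so that those of low genes are understated. A log2 fold change of -1 or less among called genes was reached by 8 members, against 6.78% of all tested genes.

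As TPM, 41 members fell and 2 rose, and 34 did not pass. All tested genes were then called lower in 25.3% and higher in 24.8% of cases, and the median of the family was -0.28 against 0.01. All of these 41 had also fallen on the spike-in scale, and the other 22 members that fell there did not pass as TPM. The family made up 0.751% ± 0.00153 of the library total under sgNS and 0.597% ± 0.0133 under sgMETTL1.3 (mean and SD, n = 3). By library, the share was 0.751%, 0.749% and 0.752% in sgNS and 0.582%, 0.605% and 0.605% in sgMETTL1.3. The shares of the groups did not overlap, and the 3 control values lay within a narrow band.

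**Figure D1:**
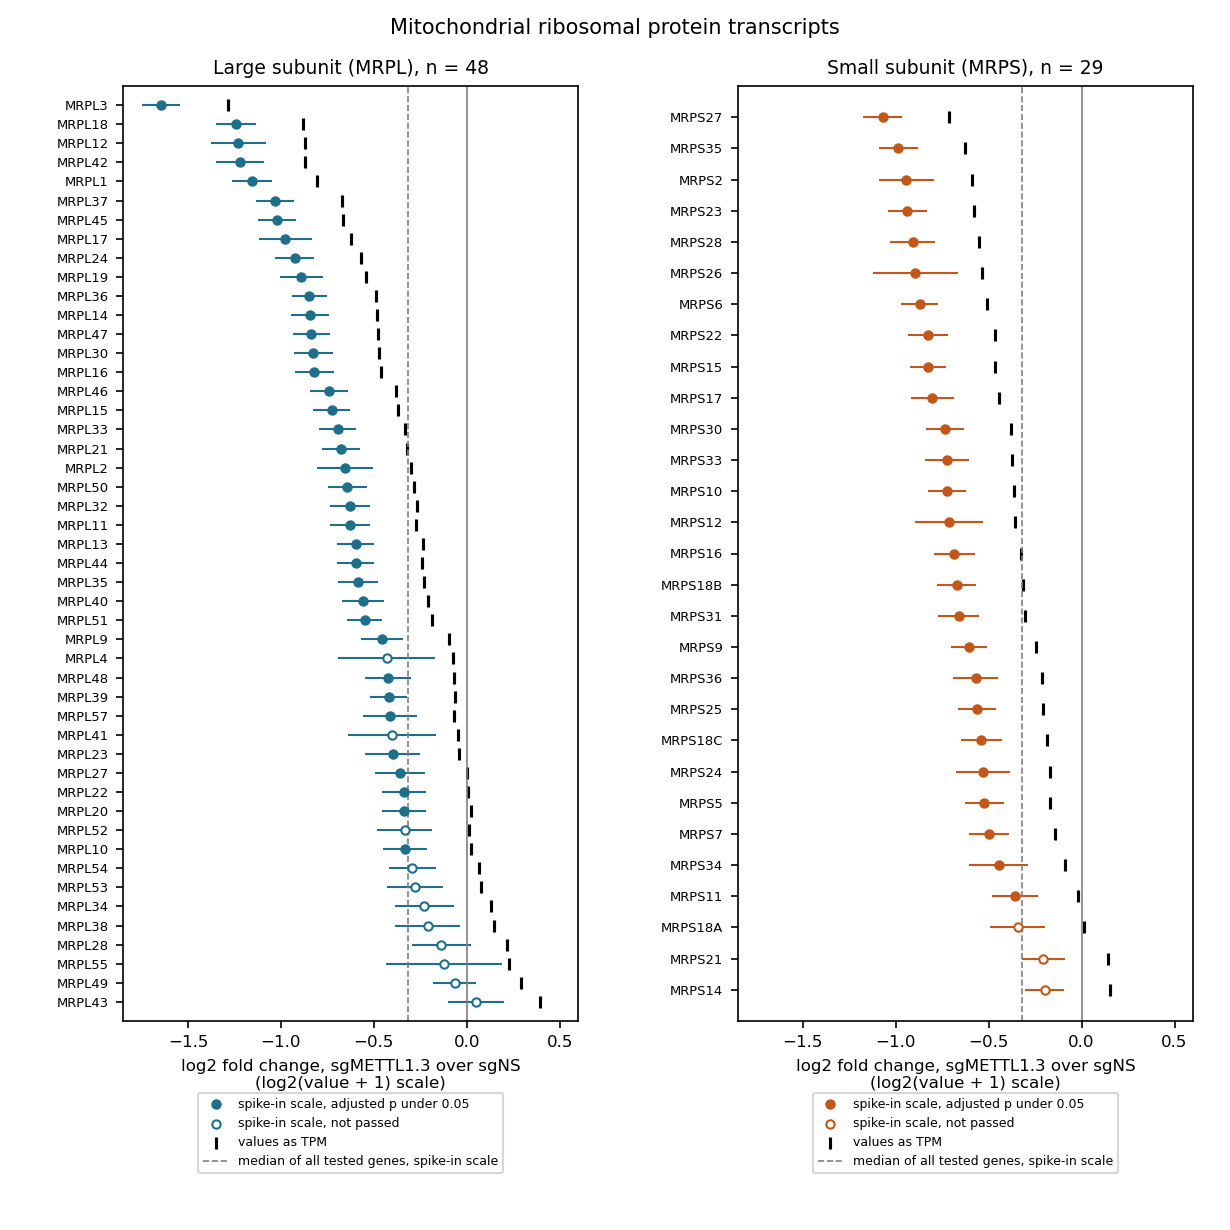
Log2 fold change of each of the 77 genes, sgMETTL1.3 over sgNS, with circles and standard error bars for the spike-in scale and black ticks for the values as TPM. On the spike-in scale filled circles mark the 63 members that fell, open circles the 14 that did not pass, and the dashed line the median of all tested genes (-0.32).

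MRPL3 had the lowest log2 fold change of the family. It encodes the counterpart of a bacterial protein of the large subunit that lies near the catalytic core, and its gene is on the minus strand of chromosome 3 at 131462212 to 131502983 (GRCh38). Its values were 245, 267 and 258 in the sgNS libraries and 78.2, 76.8 and 89.5 in the sgMETTL1.3 libraries. Every sgMETTL1.3 library lay far under every control, and the guide mean was 31.7% of the control mean. The log2 fold change was -1.65 (SE 0.100, limma adjusted p = 1.63e-07) on the spike-in scale and -1.29 as TPM (limma adjusted p = 0.000103). The promoter of MRPL3 is shown because this gene opens the order of fold changes. The sequence is from RefSeq (GRCh38.p14, chr3:131502922-131503221, minus strand), covers 250 bases before and 50 after the annotated start, and has in capitals its only match to the 5 motifs searched, the letters CCGGAAG recognised by ETS factors.
MRPL3: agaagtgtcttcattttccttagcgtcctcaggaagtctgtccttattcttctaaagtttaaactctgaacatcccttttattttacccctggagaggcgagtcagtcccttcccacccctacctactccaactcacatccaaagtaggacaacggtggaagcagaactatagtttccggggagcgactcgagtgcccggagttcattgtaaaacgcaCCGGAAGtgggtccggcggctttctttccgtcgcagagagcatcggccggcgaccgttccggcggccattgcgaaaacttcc

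Next in the order came MRPL18, MRPL12, MRPL42 and MRPL1, all of the large subunit. MRPL18, related to the bacterial protein that binds 5S rRNA (chromosome 6, 159789812 to 159798436), had values of 295, 338 and 325 in sgNS and 126, 126 and 152 in sgMETTL1.3. The groups were well separated, and the log2 fold change was -1.24 (SE 0.107, limma adjusted p = 1.47e-06). MRPL12, the stalk protein that helps recruit translation factors (chromosome 17, 81703357 to 81707526), had values of 179, 184 and 191 in sgNS and 101, 64.5 and 72.9 in sgMETTL1.3. The groups did not overlap, and replicate 1 was the highest of the sgMETTL1.3 libraries for this GC-rich transcript (64.6% GC). Its log2 fold change was -1.23 (SE 0.149, limma adjusted p = 6.73e-05), and -1.42 without that replicate. MRPL42, a protein found only in mitochondria (chromosome 12, 93467488 to 93516213), had values of 46.0, 53.3 and 49.0 in sgNS and 17.0, 21.2 and 24.3 in sgMETTL1.3. Here replicate 1 was the lowest sgMETTL1.3 library, the transcript has 37.8% GC, and the log2 fold change was -1.22, against -1.09 without that replicate. MRPL1, counterpart of the bacterial protein of the mobile L1 stalk (chromosome 4, 77862520 to 77952790), had values of 51.5, 57.6 and 52.6 in sgNS and 21.7, 23.2 and 26.0 in sgMETTL1.3, with no overlap. Its log2 fold change was -1.16, at a limma adjusted p of 2.59e-06.

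The small subunit gene with the lowest log2 fold change was MRPS27, an RNA-binding pentatricopeptide repeat protein on chromosome 5 at 72219409 to 72320646. Its values were 66.6, 75.0 and 73.3 in sgNS and 33.9, 31.3 and 35.4 in sgMETTL1.3. The groups did not overlap, and the log2 fold change was -1.07 (SE 0.103, limma adjusted p = 3.03e-06). MRPS35, another protein of the mitochondrial small subunit, followed with values of 92.4, 104 and 97.2 in sgNS and 48.8, 44.9 and 53.4 in sgMETTL1.3. This set its guide mean at 50.1% of the control mean, and its log2 fold change was -0.99 (limma adjusted p = 6.41e-06). MRPL37, MRPL45 and MRPL17 completed the 10 lowest, with log2 fold changes of -1.03, -1.02 and -0.98. MRPL37 was listed at 214, 227 and 224 in sgNS and at 115, 95.6 and 115 in sgMETTL1.3, and the groups did not overlap. The lowest 10 held 8 MRPL and 2 MRPS genes, and all 10 also fell as TPM, with log2 fold changes of -1.29 to -0.62.

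**Figure D2:**
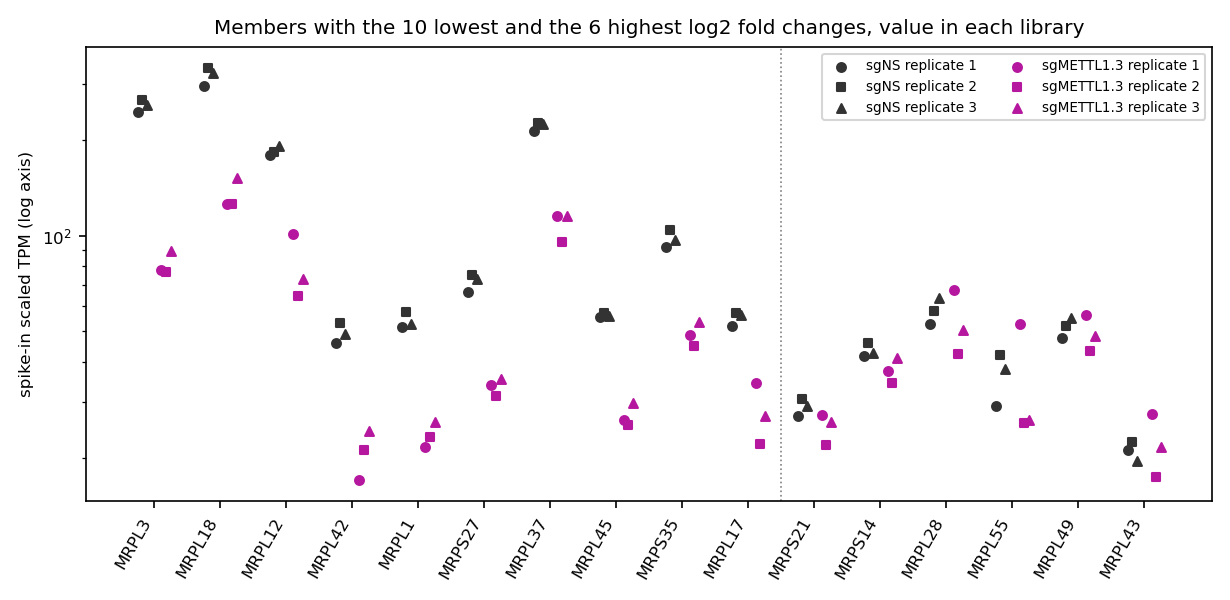
Spike-in scaled TPM on a log axis in each of the 6 libraries (black sgNS, magenta sgMETTL1.3, marker shape by replicate number) for the 10 members with the lowest log2 fold changes, left of the dotted line, and the 6 with the highest. The groups do not overlap in the 10 on the left, while sgMETTL1.3 replicate 1 (magenta circles) lies at or above the lowest control in 5 of the 6 on the right.

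MRPL43 and MRPL49, both proteins of the large subunit found only in mitochondria, stood at the other end of the order. MRPL43 (chromosome 10, 100969458 to 100987515) had values of 21.1, 22.5 and 19.6 in sgNS and 27.5, 17.4 and 21.6 in sgMETTL1.3. The groups overlapped, replicate 1 was the highest of all 6 libraries, and the log2 fold change was 0.05 (limma adjusted p = 0.797). It was -0.11 without replicate 1, so its sign rests on that library. MRPL49 (chromosome 11, 65122183 to 65127371) had values of 47.8, 51.8 and 55.2 in sgNS and 56.4, 43.5 and 48.4 in sgMETTL1.3. These groups overlapped too, and the log2 fold change was -0.07 (limma adjusted p = 0.653). As TPM both genes rose, MRPL43 by 0.40 on the log2 scale (limma adjusted p = 0.0181) and MRPL49 by 0.29 (limma adjusted p = 0.0088), and for both every sgMETTL1.3 library then lay above every control. MRPL43 overlaps TWNK and SEMA4G on the opposite strand, and MRPL49 overlaps FAU and SYVN1, so reads in the shared stretches cannot be told apart where the counting did not use strand. The MRPL43 promoter is shown as the counterpart to that of MRPL3 (RefSeq, GRCh38.p14, chr10:100987448-100987747, minus strand). It also holds the ETS letters CCGGAAG, together with the SP1 letters GGGCGG read on the other strand, both in capitals.
MRPL43: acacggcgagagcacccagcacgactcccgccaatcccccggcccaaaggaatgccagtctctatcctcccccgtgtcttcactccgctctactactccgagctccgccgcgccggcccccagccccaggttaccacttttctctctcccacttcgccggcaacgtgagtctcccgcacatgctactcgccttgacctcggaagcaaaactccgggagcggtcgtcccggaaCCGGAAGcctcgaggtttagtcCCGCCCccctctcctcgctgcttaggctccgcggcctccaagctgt

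The other 12 members that did not pass on the spike-in scale were MRPL4, MRPL41, MRPL52, MRPL54, MRPL53, MRPL34, MRPL38, MRPL28 and MRPL55 of the large subunit set and MRPS18A, MRPS21 and MRPS14 of the small subunit set. Their log2 fold changes ranged from -0.43 for MRPL4 to -0.12 for MRPL55. MRPL55 had values of 29.2, 42.0 and 38.1 in sgNS and 52.9, 25.8 and 26.2 in sgMETTL1.3. Replicate 1 was the highest of the 6 libraries and the other 2 guide libraries were the lowest, which gave the largest standard error of the family (0.313). MRPL4 showed the same layout, with 47.9, 50.8 and 52.4 in sgNS and 57.8, 27.8 and 31.7 in sgMETTL1.3 (SE 0.261). MRPL41, the most GC-rich member at 71.9%, was listed at 94.4, 103 and 104 in sgNS and at 113, 60.4 and 63.0 in sgMETTL1.3. In all 3 of these genes the call depended on replicate 1, and without it each fell, with log2 fold changes of -0.45, -0.74 and -0.69.

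MRPS14, a counterpart of a bacterial small subunit protein, did not pass under either choice of libraries on the spike-in scale. Its values were 41.7, 45.8 and 42.7 in sgNS and 37.6, 34.5 and 41.2 in sgMETTL1.3, and the log2 fold change was -0.20 with replicate 1 and without it. The groups did not overlap, although by a margin smaller than the spread within either group. MRPS21, also of bacterial origin, had 27.1, 30.6 and 29.1 in sgNS and 27.2, 22.0 and 25.9 in sgMETTL1.3, for a log2 fold change of -0.21. As TPM the sgMETTL1.3 values of MRPS21 did not overlap those of sgNS and were higher, without passing (log2 fold change 0.14, limma adjusted p = 0.0834). MRPS21 has 8 annotated pseudogenes of its name, so reads could be shared with them. MRPL28 had log2 fold changes of -0.14 on the spike-in scale and 0.22 as TPM, passing on neither.

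Replicate 1 of sgMETTL1.3 moved with GC content within the family. Across the 77 members, the difference of this library from the control mean had a Spearman correlation of 0.629 with GC content, against 0.117 and 0.0749 for replicates 2 and 3. The controls, each set against the other controls, had 0.0666, -0.518 and 0.493, but with slopes of -0.0411 to 0.0363 on the log2 scale per 10 percentage points of GC, where replicate 1 of sgMETTL1.3 had 0.354. These are descriptions across genes that share 1 library each. Among the 3 sgMETTL1.3 libraries, 41 members were highest in replicate 1 and 65 were lowest in replicate 2, which has the smallest spike-in factor (0.832). In 16 members replicate 1 reached at least the lowest control. The family is close to other genes in GC content, with a median of 50.4% against 50.0% of tested genes, and spans 35.0% for MRPL50 to 71.9% for MRPL41. Differences from the control mean were alike in replicates 2 and 3 (Spearman 0.937 across members), and less so between replicate 1 and either of them (0.744 and 0.70).

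Leaving out replicate 1, 74 members fell and 0 rose, and MRPL43, MRPL49 and MRPS14 did not pass, where 61.4% of all tested genes were called lower and 6.43% higher. As TPM without it, 56 fell and 4 rose, where 34.3% of all tested genes were called lower and 36.3% higher. With all libraries and a correction for GC content, 72 members fell and 0 rose, beside 60.4% and 8.4% of all tested genes. The same correction of the TPM values gave 53 that fell and 5 that rose, beside 33.7% and 31.1%. The members that rose as TPM under 1 or both of these conditions were MRPL43, MRPL49, MRPS14, MRPS21 and, with the GC correction only, MRPL22. Under all 6 of these conditions 40 members fell. How many of all tested genes did so was not counted, so this number has no scale beside it. On the spike-in scale, the fits without replicate 1 and with the GC correction pooled the spread across genes fully, so their counts are not directly comparable with the first. On the spike-in scale the groups did not overlap and were lower in 61 members and higher in 0 (53.4% and 8.66% of all tested genes), and as TPM 49 were lower and 3 higher (32.1% and 30.9% of all tested genes). Without replicate 1, the spike-in scaled values of 75 members lay under every control. The share of all tested genes that did so was not counted, and fewer guide libraries clear the controls more easily.

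**Figure D3:**
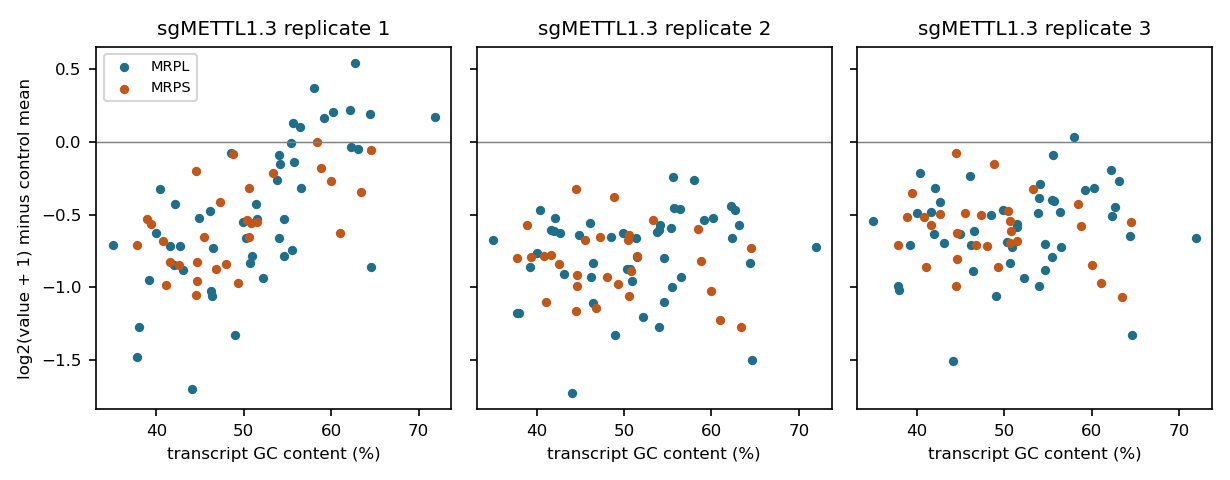
Difference of log2(value + 1) from the control mean for each member, plotted against transcript GC content, with 1 panel for each sgMETTL1.3 library and colour by subunit name. In replicate 1 GC-rich members lie higher (Spearman 0.629), while replicates 2 and 3 show no such slope (0.117 and 0.0749).

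Both subunits were lower. Of 48 MRPL genes 37 fell (77.1%), with a median log2 fold change of -0.60. Of 29 MRPS genes 26 fell (89.7%), with a median of -0.68. These shares stand beside 49.3% of all tested genes. As TPM, 23 MRPL genes fell (47.9%) and 2 rose with a median of -0.24, and 18 MRPS genes fell (62.1%) and 0 rose with a median of -0.33. All tested genes were then called lower in 25.3% and higher in 24.8% of cases. Summed over genes, MRPL values were 4861, 5274 and 5230 in sgNS and 3483, 2859 and 3249 in sgMETTL1.3. The MRPS sums were 3335, 3632 and 3565 in sgNS and 2264, 1940 and 2259 in sgMETTL1.3. For both subunits each sgMETTL1.3 library lay below each control.

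The ratio of the MRPL sum to the MRPS sum does not depend on the factor of a library. It was 1.46, 1.45 and 1.47 in sgNS and 1.54, 1.47 and 1.44 in sgMETTL1.3. Replicate 1 had the highest ratio, the other sgMETTL1.3 libraries fell around the controls, and the groups overlapped (1.46 ± 0.01 and 1.48 ± 0.0513, SD, n = 3). MRPS10 alone held 8.93% to 11.1% of the summed values in a library. Without it the ratio was 1.96, 1.97 and 1.97 in sgNS and 1.99, 2.03 and 1.97 in sgMETTL1.3, a difference of the means of about the size of the spread in sgMETTL1.3. No test was made between the subunits.

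**Figure D4:**
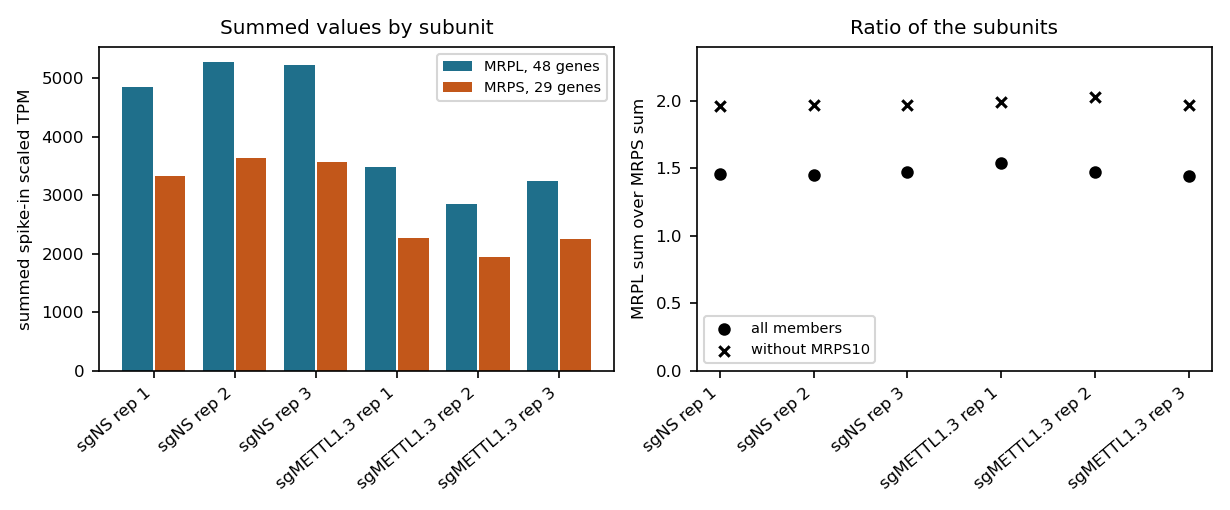
Summed spike-in scaled TPM of the 48 MRPL and 29 MRPS genes in each library (bars, left) and the ratio of the sums with and without MRPS10 (points, right). Sums are lower in every sgMETTL1.3 library, and the ratio stays between 1.44 and 1.54 with all members.

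Names and structures of the subunits differ for 3 genes. MRPS30 and MRPS18A encode proteins of the large subunit, and the MRPS36 protein belongs to the 2-oxoglutarate dehydrogenase complex. MRPS30 fell, with a log2 fold change of -0.74, as did MRPS36 with -0.57 and, as TPM, -0.21 without passing. With these genes placed by structure, 38 of 50 large subunit genes fell (76%, median -0.60) and 24 of 26 small subunit genes (92.3%, median -0.70). Shares in this paragraph stand beside 49.3% of all tested genes that fell, and 25.3% as TPM. The class of mitochondria-specific proteins, as used here, holds MRPS18A and MRPS18B, although these share a bacterial ancestor with MRPS18C. Large subunit proteins with a bacterial counterpart had 26 of 29 lower (89.7%, median -0.68). Those classed as mitochondria-specific had 12 of 21 (57.1%, near the share of all tested genes, median -0.42). The gap narrowed without sgMETTL1.3 replicate 1, to medians of -0.74 and -0.55. An earlier listing, which had MRPL47 and MRPL55 in each other's class, gave 25 of 29 (-0.66) and 13 of 21 (-0.42). In the small subunit the medians stood in the other order. They were -0.65 for 16 genes with a bacterial counterpart, of which 14 fell (87.5%), and -0.78 for 10 classed as mitochondria-specific, which all fell. As TPM the latter fell in 9 of 10 cases, the exception being MRPS34 (-0.09), a GC-rich transcript.

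The 3 stalk genes, whose proteins help bring translation factors to the ribosome, all fell on the spike-in scale. Counts in this paragraph stand beside 81.8% of the family and 49.3% of all tested genes that fell, and 53.2% and 25.3% as TPM. MRPL12 and MRPL11 (-0.63) also fell as TPM, whereas MRPL10 had -0.33 on the spike-in scale and 0.02 as TPM, where it did not pass. All 5 genes around the exit tunnel, where the new protein leaves the ribosome, fell as well. MRPL45, whose protein ties the ribosome to the inner membrane, was listed at 55.3, 56.9 and 56.0 in sgNS and at 26.3, 25.4 and 29.8 in sgMETTL1.3. These groups were tightly spaced and well apart, and the log2 fold change was -1.02 (SE 0.104, limma adjusted p = 4.54e-06). MRPL24 and MRPL17 followed with -0.93 and -0.98, and these 3 fell as TPM. MRPL22 (-0.34) and MRPL23 (-0.40) did not pass as TPM, with 0.0035 and -0.04.

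Of 11 members in which inherited mutations cause combined respiratory chain deficiency, 10 fell and MRPS14 did not pass. This was 90.9%, beside 81.8% of the family and 49.3% of all tested genes. Besides MRPL3 and MRPL12, MRPS2 fell from 65.3, 76.7 and 74.2 in sgNS to 46.2, 30.1 and 36.2 in sgMETTL1.3, or -0.94 as a log2 fold change. Its groups did not overlap, and replicate 1 was the highest sgMETTL1.3 library. MRPS23 had -0.94, MRPS28 -0.91 and MRPS22 -0.83, and MRPS16, MRPL44, MRPS7 and MRPS34 ranged from -0.68 to -0.45. As TPM, 8 of the 11 fell (72.7%, beside 53.2% of the family and 25.3% of all tested genes). MRPS7, MRPS34 and MRPS14 then did not pass. The 3 genes of the MRPS18 group, whose proteins share a bacterial ancestor but sit in different places, were listed at -0.67 for MRPS18B, -0.54 for MRPS18C and -0.34 for MRPS18A. The first of them fell on both scales, MRPS18C on the spike-in scale only, and MRPS18A on neither (limma adjusted p = 0.071).

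MRPS10 was the most abundant member in every library. Its values were 859, 959 and 913 in sgNS and 513, 530 and 611 in sgMETTL1.3. The groups were well apart, and the log2 fold changes were -0.72 on the spike-in scale (limma adjusted p = 5.22e-05) and -0.36 as TPM (limma adjusted p = 0.0199). Among MRPL genes MRPL51 had the highest control mean, 343 ± 11.6 against 234 ± 13.1 in sgMETTL1.3 (SD, n = 3). It fell on the spike-in scale (-0.55) and did not pass as TPM (-0.19). The lowest control means were those of MRPS11, with 17.8 ± 1.51 against 13.7 ± 1.66, and MRPL22, with 18.4 ± 1.37 against 14.4 ± 1.34 (SD, n = 3). Members with higher control levels tended to have lower log2 fold changes (Spearman -0.422 across 77 genes). Transcript length showed no such relation (Spearman -0.0382). In the relation with control level the control values enter both sides, and fold changes of low genes are understated. Part of it may therefore be built in, which was not tested.

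The members that fell on both scales and are not named above were MRPL2, MRPL14, MRPL15, MRPL16, MRPL19, MRPL21, MRPL30, MRPL32, MRPL36, MRPL46, MRPL47 and MRPL50 of the large subunit and MRPS5, MRPS6, MRPS15, MRPS17, MRPS25, MRPS26, MRPS31 and MRPS33. Their log2 fold changes on the spike-in scale ranged from -0.89 for MRPL19 and MRPS26 to -0.52 for MRPS5. MRPS26 had 104, 107 and 109 in sgNS and 83.9, 43.6 and 50.4 in sgMETTL1.3, where replicate 1 was well above the other 2 guide libraries and still under the controls. Those that fell on the spike-in scale only, beyond the ones already given, were MRPL9, MRPL13, MRPL20, MRPL27, MRPL33, MRPL35, MRPL39, MRPL40, MRPL48, MRPL57, MRPS9, MRPS12 and MRPS24. They ranged from -0.71 for MRPS12 to -0.34 for MRPL20. MRPS12 overlaps SARS2 on the opposite strand, and MRPS24 shares its locus with the read-through gene URGCP-MRPS24, which did not pass.

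Other nuclear gene groups gave a scale for these counts. Of all tested genes 49.3% were called lower, and as TPM 25.3% lower and 24.8% higher. Of 82 tested cytosolic ribosomal protein genes 54 fell (65.9%), with a median log2 fold change of -0.33. As TPM 15 of them fell (18.3%) and 21 rose with a median of 0.03. Subunits of respiratory complex I, which include partners of the mitochondrially translated proteins, had 17 of 37 lower (45.9%) with a median of -0.30. As TPM 4 of these were lower (10.8%) and 9 higher. Genes of the TIMM and TOMM import machinery, which carries the mitochondrial ribosomal proteins into the organelle, had 20 of 23 lower (87%) with a median of -0.73. As TPM 14 import genes were lower (60.9%) and 2 higher. The medians of the cytosolic and complex I groups were close to that of all tested genes (-0.32), and those of the import genes and of the mitochondrial ribosome lay below it. Lists were not tested against each other.

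**Figure D5:**
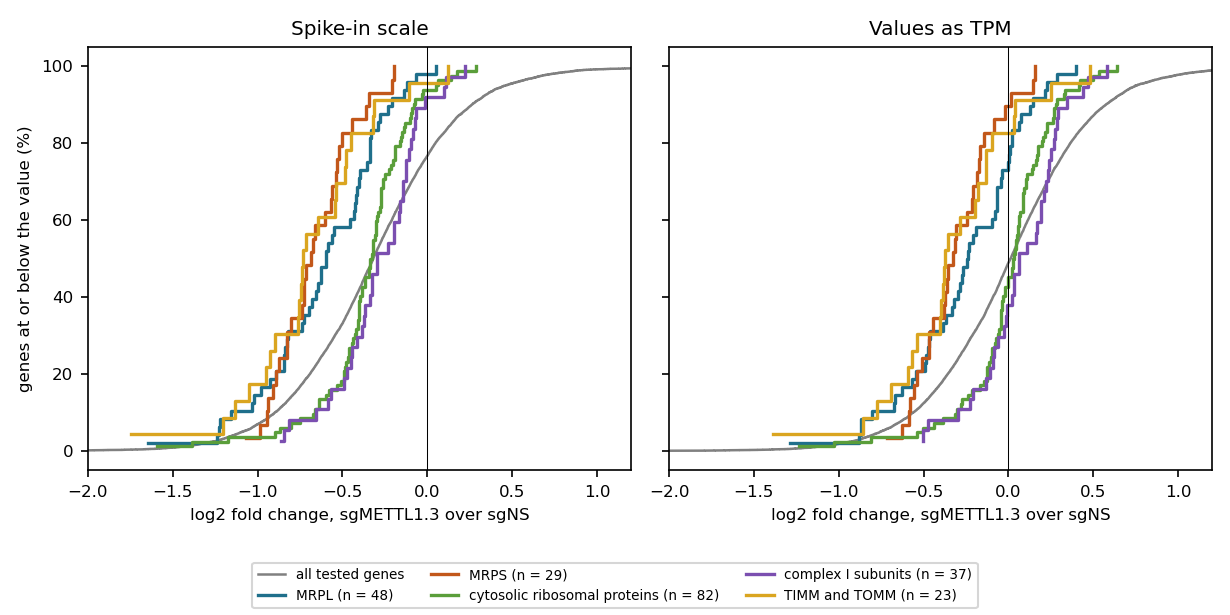
Cumulative share of genes at or below each log2 fold change on the spike-in scale (left) and as TPM (right, genes tested on both scales) for MRPL, MRPS, cytosolic ribosomal protein, complex I and TIMM or TOMM genes and all tested genes. The MRPL, MRPS and import curves lie left of all tested genes in both panels over most of the range, with medians of -0.60, -0.68 and -0.73 on the spike-in scale.

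Related genes that make or use the mitochondrial ribosome were counted in the same way, and 4 of 6 proteins of the ribosome under other names fell (66.7%, beside 49.3% of all tested genes) and 2 as TPM (33.3%, beside 25.3%). Among these 6 DAP3, the GTP-binding protein of the small subunit, was at 198 ± 8.58 in sgNS and fell to 125 ± 7.38 in sgMETTL1.3 (SD over 3 libraries), or -0.66 as a log2 fold change. ICT1 fell (-0.74), as did PTCD3 (-0.60) and CHCHD1 (-0.45), and AURKAIP1 (-0.12) and GADD45GIP1 (-0.48) did not pass. As TPM PTCD3 and CHCHD1 did not pass (limma adjusted p = 0.071 and 0.221). Of 28 genes of ribosome assembly and rRNA modification 22 fell (78.6%, beside 49.3%) and 0 rose, with a median of -0.50. As TPM 10 of the 28 fell (35.7%, beside 25.3%) and 4 rose. RBFA, which matures the small subunit, fell (-1.08), and so did TFB1M, the methyltransferase of the small rRNA (-1.05), FASTKD2 (-0.98) and MTERF3 (-0.76). All 16 translation factors and helpers fell (beside 49.3% of all tested genes), with a median of -0.64, and 11 as TPM (68.8%, beside 25.3%). The initiation factor MTIF2 fell most among them (-1.24), beside GUF1 (-0.94), the recycling factor MRRF (-0.91) and the elongation factor GFM1 (-0.75).

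Mitochondrial aminoacyl-tRNA synthetases and amidotransferase subunits, which charge the tRNAs read by these ribosomes, had 18 of 19 genes lower with a median of -0.67. This was 94.7%, beside 49.3% of all tested genes, and 12 fell as TPM (63.2%, beside 25.3%). Among them NARS2 fell (-1.13), as did WARS2 (-1.01) and EARS2 (-0.98), and AARS2 did not pass. Of 5 genes of mitochondrial transcription 3 fell (60%, near the 49.3% of all tested genes), and 2 as TPM (40%, beside 25.3%). TFAM, which packages mitochondrial DNA and starts its transcription, was listed at a mean of 49.2 in sgNS and 11.5 in sgMETTL1.3, and had log2 fold changes of -2.02 on the spike-in scale (limma adjusted p = 2.19e-07) and -1.67 as TPM. TFB2M (-1.21) and TEFM (-0.44, not passing as TPM) also fell, while POLRMT (-0.39) and MTERF1 (0.03) did not pass.

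Members lay on 21 chromosomes, and 17 of them (22.1%) started within 1000 bases of a protein-coding gene that runs the other way, against 7.37% of 19940 protein-coding genes in GENCODE release 29. Of the 17 partners 15 were tested, 9 fell (60%, near the 49.3% of all tested genes) and 6 did not pass, and as TPM 5 fell and 3 rose. In 1 such pair both genes are members, with MRPL46 and MRPS11 on chromosome 15 starting 34 bases apart. Both are thus counted among the 15 tested partners and the 9 that fell, and MRPL46 among the 5 that fell as TPM. MRPL46 was listed at 86.7, 89.5 and 93.4 in sgNS and at 56.5, 48.6 and 55.3 in sgMETTL1.3, and MRPS11 at 16.2, 19.1 and 18.1 in sgNS and at 15.2, 11.9 and 14.0 in sgMETTL1.3. Both groups of values were separate, with log2 fold changes of -0.74 and -0.36, and as TPM MRPL46 fell (-0.38) and MRPS11 did not pass (-0.02). MRPL18 starts 63 bases from TCP1, a subunit of the cytosolic chaperonin, which fell with -0.87. MRPL47 starts 36 bases from NDUFB5 of complex I, and the log2 fold changes were -0.84 and -0.86. The promoter of MRPL46 is shown as an example of the letters described next (RefSeq, GRCh38.p14, chr15:88467339-88467638, minus strand), with capitals on the YY1 letters AAGATGGCG. The RefSeq window of MRPS11, whose annotated start there differs from that of GENCODE, does not hold these letters.
MRPL46: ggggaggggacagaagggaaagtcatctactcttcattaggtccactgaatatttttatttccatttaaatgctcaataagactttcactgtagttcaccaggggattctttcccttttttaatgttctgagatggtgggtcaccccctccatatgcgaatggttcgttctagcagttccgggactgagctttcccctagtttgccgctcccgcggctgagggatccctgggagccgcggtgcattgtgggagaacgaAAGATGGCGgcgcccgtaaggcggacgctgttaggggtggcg

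The YY1 letters recurred at the starts of members. RefSeq promoters of 300 bases were matched for 68 of the 77, and AAGATGGCG stood on either strand in 13 of them (19.1%), against 1.85% of 27305 promoters in the table and 4.31% of 9198 promoters of tested genes. YY1 is a zinc finger factor, and a match of letters is a description and not a shown site. The letters contain ATG, the start codon, and whether they mark a translation start in these members was not tested. Of 13 windows in 12 members with enough flanking sequence, 11 read in the direction of the gene, 9 began at or after the annotated start and 9 were followed by gc. The windows below show the shared letters in capitals with 10 bases on either side, for members that did and did not fall, all in the direction of the gene. MRPL42, MRPS10, MRPS18B and MRPS30 fell on both scales, and MRPL38 and MRPS18A passed on neither.
MRPL42: ggattgaaacAAGATGGCGggttcgtggt
MRPS10: cgggaccggcAAGATGGCGgcgcggacag
MRPS18B: ggcgtacgtcAAGATGGCGgcgtctgtat
MRPS30: atcgcgggcaAAGATGGCGgcggccaggt
MRPL38: ggccggagggAAGATGGCGgcgccctggt
MRPS18A: taggtttttgAAGATGGCGgccctcaagg

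Of the 12 members with such a window 9 fell on the spike-in scale and 8 as TPM. In the whole family 81.8% and 53.2% fell, and of all tested genes 49.3% and 25.3%. The ETS letters CCGGAAG, searched on both strands like the others, were in 41.2% of members and 19.9% of tested-gene promoters, and either the YY1 or the ETS letters were in 54.4% and 23.2%. The share with YY1 letters was 19.4% in the 36 matched members that fell under all 6 conditions given above and 18.8% in the other 32. For ETS letters these shares were 30.6% and 53.1%. The NRF1 motif was in 11.8% of members and 12.3% of tested-gene promoters, the SP1 letters GGGCGG in 60.3% and 69.2%, and the E-box CACGTG in 8.82% and 10.4%. No motif contains another.

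Annotation limits some of the values. By GENCODE release 29, 13 members overlap another protein-coding gene on the same strand and 26 on the opposite strand, and 39 overlap none. Whether reads were counted by strand is not stated in the labels. For 34 members, 75 pseudogenes carry their name, and the pseudogenes MRPL42P5, MRPL45P2 and MRPS31P5 had rows of their own that did not pass (log2 fold changes of -0.08, -0.14 and -0.16).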

How the data were processed

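Poly(A)-selected RNA of 6 libraries, 3 per guide, was used. The builds GRCh38 and hg38 and the tools cutadapt, STAR and RSEM are named per the submitters' processing notes. Versions were not given in the sources used here, nor were annotation and use of strand. As deposited, the signal values are TPM multiplied by 1 factor per library so that 92 spike-in rows reach the same sum, as read from the values, and no read depth can be derived from them. No pair of libraries held identical values, and 28 rows bore names turned into dates.

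Genes that reached a value of 1 in 3 or more of the 6 libraries entered the limma 3.58.1 fit (R 4.3.3, trend, robust) of log2(value + 1), all groups in 1 fit, no replicate block, Benjamini-Hochberg adjustment over all tested genes and a threshold of 0.05. The design had been written with a branch for normalized values, which was used. Values as TPM were rescaled to the same total without spike-ins. The GC correction was a loess fit with span 0.5 on GENCODE GC content, known for 94.3% of tested genes. Coordinates, overlaps and neighbours came from GENCODE release 29 (GRCh38), promoters from RefSeq (GRCh38.p14). The fit was tested on simulated data of 12449 genes with 200 changed. There it called 37% of those changed by 0.5 and 85% of those changed by 1 on the log2 scale. On the real values it called 6142 genes lower and 797 higher, so these shares do not measure its sensitivity there.

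The members and lists were chosen with earlier results of these data known. The classes of MRPL47 and MRPL55 were corrected after the values were seen. Named with values were METTL1, the 10 lowest and 6 highest members by log2 fold change, those that did not pass or rose as TPM, the structural and disease groups, the most and least abundant member of each subunit, and up to 4 genes with the smallest p of each other list. Alternatives were other scalings, filters and pseudocounts, no trend, a block for replicate number, a GC correction, a structural assignment of subunits and each library left out. Single genes of the comparison lists are in part not reported here.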

Additional observations from a re-analysis of the deposited data

How the results depend on the processing

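The direction of the family held under every alternative, while the counts followed the scaling. Members that fell numbered 63, and 41 as TPM and 38 with quantile normalization. In the same order, 6142 of 12449, 3147 of 12447 and 3231 of 12449 tested genes were called lower. Members that rose numbered 0, and 2 as TPM, 2 with median-ratio factors, 3 with quantiles, 4 as TPM when sgMETTL1.3 replicate 1 is dropped and 5 with GC-corrected TPM. Again in this order, 797, 3093, 3220, 2978, 4445 and 3658 tested genes were called higher. Large subunit genes that fell numbered 37, and 23 as TPM, 24 with median-ratio factors and 22 with quantiles, and small subunit genes 26, and 16 with quantiles. With median-ratio factors 3296 of 12468 tested genes were called lower. The family median of -0.63 became -0.28 as TPM, -0.27 with median-ratio factors, -0.23 with quantiles, -0.24 with GC-corrected TPM and -0.24 as TPM when replicate 1 is dropped, since each of these scalings centres all genes near 0. Leaving out 1 library gave 54 to 74 members lower, 30 to 46 of the large and 23 to 28 of the small subunit, 0 higher, and medians of -0.68 to -0.57. The calls over all tested genes moved as well. They ranged from 4880 of 12279 lower without sgNS replicate 2 to 7538 of 12286 without sgMETTL1.3 replicate 1. These 2 fits also gave the 54 and the 74 members. With the replicate number as a block 65 members fell in place of 63, with 3 more calls gained and 1 lost. That fit called 5861 of 12449 tested genes lower. It pooled the spread across genes fully, so its count is not directly comparable with the first. Deviations of same-numbered libraries correlated at -0.0137, 0.0045 and -0.0385, so the numbers were not taken to pair the libraries.

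Single members changed sign as follows. As TPM the log2 fold changes were MRPL10 0.0198, MRPL20 0.0235, MRPL22 0.00353, MRPL28 0.218, MRPL34 0.13, MRPL38 0.145, MRPL49 0.289, MRPL52 0.00902, MRPL53 0.0737, MRPL54 0.0651, MRPL55 0.229, MRPS14 0.156, MRPS18A 0.0134 and MRPS21 0.143. With median-ratio factors they were MRPL10 0.0266, MRPL20 0.0304, MRPL22 0.00999, MRPL27 0.00681, MRPL28 0.225, MRPL34 0.137, MRPL38 0.152, MRPL49 0.296, MRPL52 0.0159, MRPL53 0.0807, MRPL54 0.072, MRPL55 0.236, MRPS14 0.162, MRPS18A 0.0203 and MRPS21 0.149. With quantiles they were MRPL10 0.0435, MRPL20 0.0843, MRPL22 0.0101, MRPL23 0.0314, MRPL27 0.0683, MRPL28 0.27, MRPL34 0.206, MRPL38 0.191, MRPL39 0.00594, MRPL41 0.0232, MRPL49 0.345, MRPL52 0.0248, MRPL53 0.114, MRPL54 0.129, MRPL55 0.256, MRPS14 0.198, MRPS18A 0.0775 and MRPS21 0.155. As TPM with sgMETTL1.3 replicate 1 dropped they were MRPL20 0.002, MRPL22 0.0631, MRPL28 0.109, MRPL34 0.00297, MRPL38 0.00527, MRPL39 0.00687, MRPL48 0.0293, MRPL49 0.262, MRPL54 0.0115, MRPS14 0.227 and MRPS21 0.151. With GC-corrected TPM they were MRPL22 0.152, MRPL28 0.0202, MRPL39 0.062, MRPL49 0.2, MRPL55 0.0224, MRPS14 0.246 and MRPS21 0.161, and with GC correction of the spike-in scaled values MRPL43 -0.0813. Leaving out 1 library at a time, MRPL28 ranged from -0.317 to 0.0121, MRPL43 ranged from -0.111 to 0.207, MRPL49 ranged from -0.163 to 0.0206 and MRPL55 ranged from -0.455 to 0.0483. The lowest of each came without sgMETTL1.3 replicate 1. The cause of these changes beyond the scaling was not tested, and the unknown read depth limits what small differences can show.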
